A study of Mus musculus with 10 samples.

Results

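The imprinted growth network genes are 10 mouse genes chosen by name, with earlier results of these data known: Igf2, H19, Igf2r, Grb10, Dlk1, Meg3, Plagl1, Mest, Peg3 and Ndn. All 10 were found in the annotation, among 27792 protein-coding and lincRNA genes. Their promoters and gene bodies were searched for peaks of H3K27me3, the repressive trimethylation of lysine 27 on histone H3, in sorted fetal liver stem cells, the long-term hematopoietic stem cells or LT-HSCs. CUT&Tag was used, in which an antibody guides a transposase to the mark and the cut fragments are sequenced. The cells were sorted as LSKCD48-CD150+ at E14.5 of embryonic development and came from 2 genotypes, wild type (WT) and IκBα knockout (KO), with 3 libraries each and the same antibody. IκBα, encoded by Nfkbia, is the inhibitor that holds NF-κB in the cytoplasm. The knockout is the targeted Nfkbia tm1Bal allele, lost in every cell of the embryo, and the embryos came from crosses of heterozygous parents. No further treatment was given. Which embryos went into which library is not given in the sources used here, so p-values measure the spread between these libraries, which may in part be technical. The study's figure legend for this mark gives fewer independent experiments than libraries per genotype. Its reporting summary calls the 3 replicates independent.

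Genomic imprinting leaves an allele of a gene silent according to the parent it came from, and many imprinted genes set the growth of the embryo. Igf2, Dlk1, Mest, Peg3, Plagl1 and Ndn are expressed mainly from the paternal allele, H19, Meg3 and Igf2r mainly from the maternal allele, and Grb10 from the maternal allele in most tissues. DNA methylation at imprinting control regions carries the parental memory, and H3K27me3, placed by the Polycomb complex PRC2, can lie on the silent allele or on both alleles of a gene that is off. The peak files do not separate the alleles, so a peak here may lie on either allele or on both, and a peak is not a measure of expression.

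The libraries differed in depth of calling, which bears on every value below. Replicates 1 and 2 of each genotype were read at 75 bp and held 4160 to 6013 peaks, whereas replicate 3 was read at 50 bp and held 1047 peaks in WT and 2325 in KO. A peak was called only when its total signal, the fragment coverage summed over the peak, passed the limit of its own library. The smallest called total signal was 6616 to 7307 in the 75 bp libraries, 3344 in WT replicate 3 and 6711 in KO replicate 3. A gene without a peak was therefore below that limit and not shown to lack the mark. The promoters of 9 LT-HSC markers, including Kit, Slamf1 and Procr, held 0 peaks. Of markers of other fetal liver cells, promoter peaks in at least 1 library were found for 0 of 3 of erythroid cells, 0 of 3 of macrophages, 1 of 5 of hepatoblasts (Foxa2), 1 of 3 of endothelium (Kdr) and 3 of 3 of mesenchyme. Since most genes had no promoter peak, these counts do not check the identity of the cells.

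Peaks were found at 5 of the 10 genes, namely Igf2, Grb10, Dlk1, Igf2r and Mest, and all 5 had a promoter peak in at least 1 library. A promoter here is the stretch from 5 kb before to 100 bp after a transcription start site (TSS) of any transcript in the annotation. Over all genes, 14.0 percent had such a peak in at least 1 library. The members had a median of 9 TSSs against 2 over all genes, so more sequence was searched at most of them. Ndn, with 1 TSS, was the exception. Among genes with at least 3 TSSs, 5 of the 9 members and 16.6 percent of all genes had a promoter peak. When TSSs were limited to the GENCODE basic set of main transcripts, a choice made after seeing the data, 4 of the 10 members and 13.4 percent of all genes were called, since the peaks at Igf2r lay near an internal short transcript alone. No member was called in all 6 libraries, where 2.26 percent of all genes were, and 2 members, Igf2 and Grb10, were called in all 4 of the 75 bp libraries, where 7.41 percent of all genes were. This depended on the promoters used. With the basic set, Igf2 lacked a promoter call in WT replicate 1 and Grb10 in KO replicate 2. With promoters of 1 kb to either side of a TSS, Grb10 was called in WT replicate 1 and KO replicate 1 alone.

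In total the members carried 25 peaks: 9 at Grb10, 7 at Igf2, 5 at Dlk1, 3 at Igf2r and 1 at Mest. WT replicate 1 held 3 of them, WT replicate 2 held 8, KO replicate 1 held 10 and KO replicate 2 held 4. Both 50 bp libraries held 0. The peaks were weak for their libraries: 21 of 25 lay under the library's median total signal, their percentiles ranged from 0.765 to 68.5 with a median of 25.7, and 21 of 25 were under 2 times the smallest signal called in that library. Their widths ran from 1589 to 5630 bp with a median of 2876 bp, and their highest coverage from 6 to 10 fragments. The 4 peaks over the median were 2 at Igf2 in KO replicate 1, 1 at Igf2 in KO replicate 2 and 1 at Dlk1 in KO replicate 2.

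**Figure D1:**
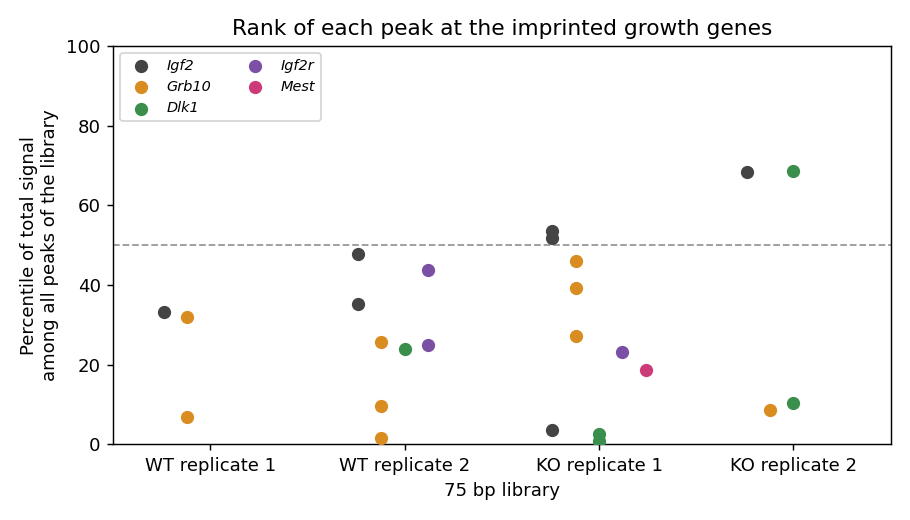
Percentile of the total signal of each peak at the imprinted growth genes among all peaks of its library, for the 4 libraries read at 75 bp (x axis). Each point is 1 peak, colours give the gene and the dashed line marks the 50th percentile; all peaks of the WT libraries lie under it, and the highest points are Igf2 and Dlk1 in KO replicate 2 at 68.3 and 68.5.

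Igf2 encodes insulin-like growth factor 2, the main growth-promoting ligand of the fetus, and lies on chromosome 7 at chr7:142650766-142666816 (GRCm38, minus strand). The summed total signal of its peaks was 9603 in WT replicate 1, 21972 in WT replicate 2, 36663 in KO replicate 1 and 17586 in KO replicate 2, with no peak in replicate 3 of either genotype. As multiples of the median peak of each library, the WT sums were 0.777 and 1.74 while the KO sums were 2.62 and 1.39, so the genotypes overlapped. The peaks fell into a 5′ region, which starts at the most upstream TSS and runs over the upstream promoters, and a 3′ region. In the 3′ region, the peaks of WT replicate 2 and KO replicate 1 lay over downstream promoters and overlapped 109 bp of exon each. That of WT replicate 1 lay further downstream and overlapped 1146 bp of exon.

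The 5′ region of Igf2, chr7:142658794-142667322, was called in WT replicate 2 with a total signal of 12106, in KO replicate 1 with 29730 over 2 peaks and in KO replicate 2 with 17586. WT replicate 1 had no peak there. Over the library median the values were 0.959 in WT replicate 2, 2.13 in KO replicate 1 and 1.39 in KO replicate 2, and both 75 bp KO libraries stood above both 75 bp WT libraries. The same order was seen in 16.2 percent of the 3624 regions called in at least 3 libraries. The antisense gene Igf2os starts on the other strand in this region and shares these peaks.

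The 3′ region of Igf2, chr7:142653633-142658341, had the opposite order. It was called with a total signal of 9603 in WT replicate 1, 9866 in WT replicate 2 and 6933 in KO replicate 1, and was not called in KO replicate 2. Over the library median these were 0.777, 0.781 and 0.496. WT was above KO in the 75 bp libraries, as in 13.9 percent of regions. The values came from partly different sequence. The peaks were chr7:142653633-142656264 in WT replicate 1, chr7:142656154-142658341 in WT replicate 2 and chr7:142656071-142657659 in KO replicate 1. The peak of WT replicate 1 also covered Mir483, a microRNA gene inside Igf2, and reached promoters only of transcripts outside the basic set, such as Igf2-209.

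The window around the most upstream Igf2 start, chr7:142666767-142667066 on the minus strand, is shown because it was overlapped by a peak in 3 libraries (WT replicate 2, KO replicate 1 and KO replicate 2) although it holds only 2 CpG dinucleotides, printed in capitals. The sequence is from RefSeq, GRCm38.p6, as are the others below, and runs from 250 bases before to 50 bases after the RefSeq start.
Igf2: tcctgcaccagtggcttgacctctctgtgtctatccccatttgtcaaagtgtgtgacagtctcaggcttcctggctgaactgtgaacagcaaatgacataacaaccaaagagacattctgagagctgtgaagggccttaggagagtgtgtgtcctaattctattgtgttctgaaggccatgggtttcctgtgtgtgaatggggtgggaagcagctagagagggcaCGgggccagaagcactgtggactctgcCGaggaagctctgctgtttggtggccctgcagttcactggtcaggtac

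Of the other RefSeq windows of Igf2, the one at chr7:142658755-142659054 held 24 CpG and was overlapped by a peak in KO replicate 1 alone.

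H19 is the non-coding RNA gene that shares enhancers and an imprinting control region with Igf2, and is expressed from the other parental allele. Its locus, chr7:142575529-142578143 on the minus strand, held no peak in any library. The nearest peaks in the 75 bp libraries were those at Igf2, 70.5 to 78.3 kb away. In both 50 bp libraries the nearest peak was about 203 kb away. No peak was called at the promoter of Ins2, the insulin gene next to Igf2, and the same holds for Nctc1, Mrpl23, Lsp1 and Tnnt3 on the H19 side.

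Igf2r encodes the receptor that takes IGF2 up and delivers it to lysosomes, and so limits growth. Its peaks were inside introns, within the overlap with Airn, the antisense non-coding RNA that silences Igf2r on the paternal allele. In WT replicate 2 there were 2 peaks, chr17:12751874-12754749 with a total signal of 11278 and chr17:12756741-12759381 with 8594. KO replicate 1 had 1 peak, chr17:12754681-12757412, with a total signal of 8799. WT replicate 1, KO replicate 2 and the 50 bp libraries had none. None of these peaks touched an exon, and they lay between 10.3 and 17.8 kb downstream of the start of the main transcript. With promoters of 1 kb to either side of a TSS, Igf2r had no promoter peak. The main promoter of Igf2r, chr17:12769657-12769956 on the minus strand, is shown as a CpG-rich window that no peak overlapped in any library. It holds 34 CpG, more than 92.3 percent of 32851 RefSeq promoters.
Igf2r: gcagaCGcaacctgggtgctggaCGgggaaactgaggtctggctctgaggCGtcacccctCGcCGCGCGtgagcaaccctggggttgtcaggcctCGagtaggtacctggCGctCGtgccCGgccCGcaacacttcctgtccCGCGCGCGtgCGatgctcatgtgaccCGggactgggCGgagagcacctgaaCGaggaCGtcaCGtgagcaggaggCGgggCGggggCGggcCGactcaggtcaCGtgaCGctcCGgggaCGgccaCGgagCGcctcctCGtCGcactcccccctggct

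Grb10 encodes an adaptor protein that binds the insulin and IGF1 receptors and dampens their signal. It spans chr11:11930508-12038683 (minus strand) and had a peak in every 75 bp library. The summed total signal was 16529 in WT replicate 1, 22953 in WT replicate 2, 33434 in KO replicate 1 and 7854 in KO replicate 2. As multiples of the median peak, the WT libraries had 1.34 and 1.82 and the KO libraries 2.39 and 0.622. The KO libraries held both the highest and the lowest of the 4 values.

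The position of the Grb10 peaks differed between libraries of the same genotype. WT replicate 1 and KO replicate 1 had peaks over both upstream promoters, with total signals of 9418 and 12797 at the major one and 7111 and 11339 at the internal one. WT replicate 2 and KO replicate 2 had none over either start. WT replicate 2 had peaks at chr11:12040189-12043547, upstream of the gene, with a total signal of 8711, at chr11:12030809-12033468, between the promoters, with 6890 and at chr11:12016473-12019644, in the body, with 7352. KO replicate 1 also had a peak between the promoters, chr11:12031309-12033747, with a total signal of 9298. KO replicate 2 had only chr11:12042538-12045835, with a total signal of 7854, which lies 3855 bp upstream of the 5′ end. The 5 peaks that covered no start had a CpG observed to expected ratio of 0.105 to 0.169. Those over the internal promoter were close to this range, at 0.164 in WT replicate 1 and 0.269 in KO replicate 1, and those over the major promoter had 0.892 and 0.765.

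The pair of Grb10 promoter windows is shown because the same libraries, WT replicate 1 and KO replicate 1, marked both although their CpG content is far apart. The major promoter, chr11:12037371-12037670 on the minus strand, holds 45 CpG, more than 98.1 percent of RefSeq promoters. The internal promoter, chr11:12027922-12028221 on the minus strand, holds 9. In WT replicate 1 the stretch of highest coverage of each peak overlapped these windows.
Grb10 major: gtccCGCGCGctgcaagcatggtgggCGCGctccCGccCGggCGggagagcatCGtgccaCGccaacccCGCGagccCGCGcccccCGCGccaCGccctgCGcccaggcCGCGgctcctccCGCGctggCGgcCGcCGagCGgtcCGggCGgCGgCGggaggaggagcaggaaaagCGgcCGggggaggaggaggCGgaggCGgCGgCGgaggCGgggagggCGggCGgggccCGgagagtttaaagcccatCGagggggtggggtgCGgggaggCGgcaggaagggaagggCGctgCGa
Grb10 internal: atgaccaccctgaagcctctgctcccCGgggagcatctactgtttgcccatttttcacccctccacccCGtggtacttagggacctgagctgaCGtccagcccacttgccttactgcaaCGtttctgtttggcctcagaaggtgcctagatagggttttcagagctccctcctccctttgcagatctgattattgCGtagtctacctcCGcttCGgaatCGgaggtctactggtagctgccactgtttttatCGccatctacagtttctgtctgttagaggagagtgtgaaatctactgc

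Dlk1 encodes a membrane protein with EGF-like repeats that acts on Notch signalling and on progenitor cells, and lies at chr12:109452823-109463336 (plus strand). Its summed total signal was 8518 in WT replicate 2, 13583 in KO replicate 1 and 25622 in KO replicate 2, and it had no peak in WT replicate 1 or in replicate 3 of either genotype. In multiples of the median peak the values were 0.675 in WT and 0.972 and 2.03 in KO, so that both 75 bp KO libraries were above both WT libraries. Of the members, 1 had this order, as did 2.38 percent of all genes and 15.1 percent of the 4376 genes with a peak in at least 1 of the 75 bp libraries. Of the 15.5 kb of the Dlk1 locus, peaks covered 2.95 kb in WT replicate 2, 3.88 kb in KO replicate 1 and 8.04 kb in KO replicate 2.

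The promoter at the 5′ end of Dlk1 carried a peak in the KO libraries alone. It was chr12:109451346-109453085 in KO replicate 1, with a total signal of 6855, and chr12:109449254-109454854 in KO replicate 2, with 17657. The peak of KO replicate 1 was 1.02 times the smallest signal called in its library, and that of KO replicate 2 was 2.42 times. Dlk1 was the only member with a promoter peak in both 75 bp KO libraries and neither 75 bp WT library when TSSs were limited to the basic set, a pattern held by 0.457 percent of all genes. With all TSSs it was not, because the peak of WT replicate 2 in the 3′ part of the gene lies over Dlk1-209, a short transcript, and no member then had this pattern, against 0.417 percent of all genes. KO replicate 3 had no peak at Dlk1. The 3′ part was called at chr12:109458705-109461654 in WT replicate 2, chr12:109457430-109459565 in KO replicate 1 and chr12:109459557-109461990 in KO replicate 2, with total signals of 8518, 6728 and 7965. The peaks of the KO libraries overlapped each other only at their edges. The Dlk1 promoter window, chr12:109452573-109452872 on the plus strand, is shown because the peaks of both KO libraries overlapped it and the stretch of highest coverage in KO replicate 1 lay inside it. It holds 9 CpG.
Dlk1: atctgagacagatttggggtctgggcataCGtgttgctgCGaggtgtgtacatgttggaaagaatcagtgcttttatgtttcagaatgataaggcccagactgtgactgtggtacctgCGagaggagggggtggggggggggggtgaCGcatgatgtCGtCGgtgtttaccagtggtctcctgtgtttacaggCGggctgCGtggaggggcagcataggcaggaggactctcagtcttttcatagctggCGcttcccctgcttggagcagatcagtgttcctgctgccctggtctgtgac

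**Figure D2:**
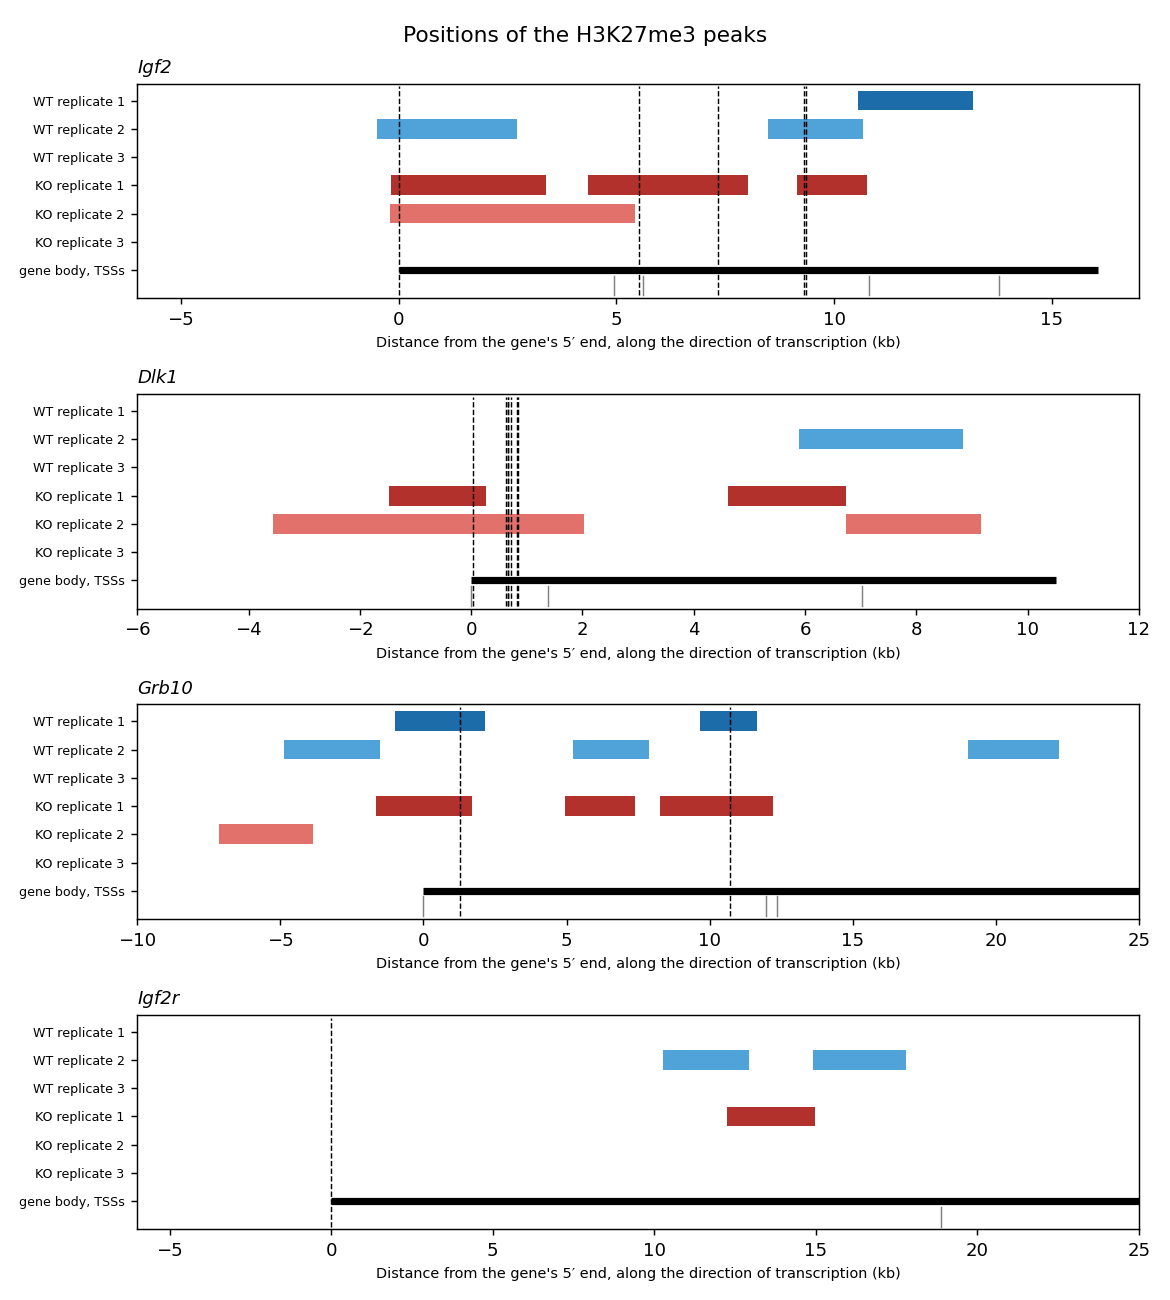
Positions of H3K27me3 peaks at Igf2, Dlk1, Grb10 and Igf2r in the 6 libraries (rows), as distance in kb from the gene's 5′ end in the direction of transcription. Coloured bars are peaks, the black bar is the gene body (cut off at the edge for Grb10 and Igf2r), dashed lines are TSSs of the GENCODE basic set and grey ticks are other TSSs; peaks at the Dlk1 5′ end are seen in KO replicates 1 and 2 alone, those of Igf2r lie 10.3 kb or more from its main start, and both rows of replicate 3 are empty.

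Meg3, the maternally expressed non-coding RNA gene of the Dlk1 domain, had no peak from promoter to end (chr12:109541001-109571726). Its nearest peaks were those in the 3′ part of Dlk1, 74.0 to 76.4 kb away in WT replicate 2, KO replicate 1 and KO replicate 2. In WT replicate 1 the nearest lay at Begain, 479 kb away. Further out in the same domain, Dio3, which encodes a deiodinase that inactivates thyroid hormone, and Begain, which encodes a postsynaptic protein, had a promoter peak in 5 of 6 libraries, WT replicate 3 being the exception. Rtl1, Rian and Mirg, which lie between Meg3 and Dio3, had none.

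Mest, which encodes a protein of the alpha/beta hydrolase fold, had a peak in KO replicate 1 alone, chr6:30732543-30734694, with a total signal of 8285, at percentile 18.7 of that library. It covered the starts of 2 upstream alternative transcripts. The RefSeq windows at the downstream starts, chr6:30737800-30738099 and chr6:30737803-30738102, held 17 CpG each and no peak. In WT replicate 2, WT replicate 3, KO replicate 2 and KO replicate 3 the nearest peak was at Klf14, a transcription factor gene of the same domain, 207 to 210 kb away, and Klf14 had a promoter peak in 5 of 6 libraries.

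The other paternally expressed genes had no peak in any library. Plagl1, a zinc finger transcription factor gene at chr10:13060504-13131694, had its nearest peak 112 to 113 kb away at Stx11 in the 75 bp libraries, and its promoter window held 26 CpG. Peg3, which encodes a zinc finger protein and lies at chr7:6703892-6730431, was 1641 to 1859 kb from the nearest peak. Ndn, which encodes necdin, a protein that restrains the cell cycle, lies at chr7:62346569-62350262 and was 861 to 1408 kb from the nearest peak. The neighbours of Peg3 (Zim1, Zim2, Usp29 and Zfp264) and of Ndn (Magel2, Mkrn3, Peg12, Snrpn, Snurf, Ube3a and Atp10a) also had no peak at promoter or body.

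**Figure D3:**
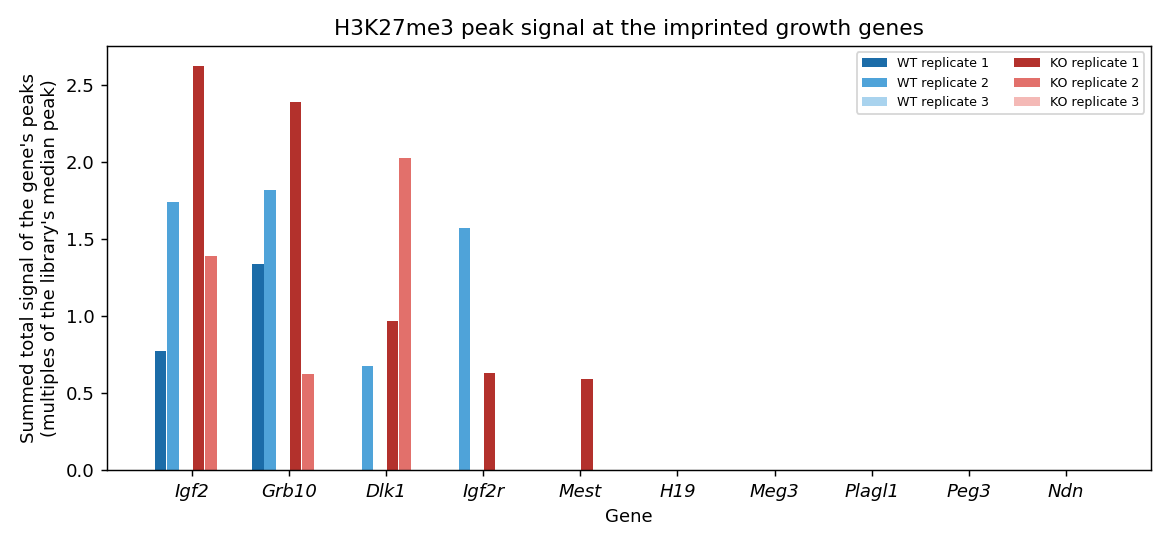
Summed total signal of the peaks at each of the 10 genes, in multiples of the library's median peak, for 3 WT libraries (blue) and 3 KO libraries (red). Each bar is 1 library and an absent bar means no called peak; Igf2 and Grb10 have bars in all 4 libraries read at 75 bp, Dlk1 in 3, Igf2r in 2 and Mest in 1.

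The 16 RefSeq promoter windows of 9 members were compared by their sequence. The H19 promoter was not among the windows. A peak overlapped 8 windows, which held 2 to 45 CpG with a median of 9, and none overlapped the other 8, which held 1 to 34 with a median of 15; the median over all promoters was 7. CpG content therefore overlapped widely between windows with and without a called peak. The hexamer TGCCGC, the core motif of the imprint-protecting zinc finger protein ZFP57, was searched on both strands in these windows and found in 6 of the 16, against 11.6 percent of all promoters. The downstream Mest windows overlap almost fully and both hold it. Counted as 1, they leave 5 of 15 windows with the hexamer and a median of 13 CpG in the windows without a peak. In the peaks themselves, 7 of 25 held the hexamer, where 56.6 to 61.3 percent of all peaks did in the 4 libraries that held them, and 7 of 25 had a CpG observed to expected ratio above the median of their library. Member peaks had a median width of 2876 bp, where the medians of those libraries were 3475 to 3624 bp. Some of the 25 peaks cover the same sequence in different libraries. The part of width and CpG content in the hexamer count was not tested. These are matches of letters and not measured binding sites.

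The comparison of KO with WT asks whether loss of IκBα changes H3K27me3 at these genes. The number of members with a promoter peak was 2, 4 and 0 in WT replicates 1 to 3 and 5, 3 and 0 in KO replicates 1 to 3. The means were 2 ± 2 in WT and 2.67 ± 2.52 in KO (SD, n = 3), a difference of 0.667 (exact two-sided permutation test, p = 0.8). Leaving out 1 library moved this difference between -0.5 (without KO replicate 1) and 2 (without KO replicate 3). The counts with a peak at promoter or body were identical. With 3 libraries against 3 the smallest p this test can give is 0.1, so no value of this size of design could pass 0.05. Beside these counts, the share of all genes with a promoter peak was 9.27, 11.4 and 2.93 percent in WT and 11.3, 10.6 and 6.96 percent in KO. The part of the library yield in the members' counts was not tested.

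The share of the members' loci under peaks was 1.80, 5.34 and 0 percent in the WT libraries and 6.33, 3.43 and 0 percent in the KO libraries. The means were 2.38 ± 2.72 and 3.25 ± 3.17 percent (SD, n = 3), a difference of 0.873 points (exact two-sided permutation test, p = 0.8). Leaving out 1 library moved this difference between -0.666 and 2.50 points. Over all genes the covered share was 1.19, 1.73 and 0.141 percent in WT and 1.52, 1.46 and 0.546 percent in KO. In every 75 bp library the members' share was above that of all genes, and in both 50 bp libraries it was below. The members took 0.0377, 0.0678 and 0 percent of the peak signal of the WT libraries and 0.103, 0.0579 and 0 percent of that of the KO libraries, a difference of 0.0186 points (exact two-sided permutation test, p = 0.8).

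Dlk1 and Mest had a promoter peak in more KO than WT libraries, and 0 members had one in more WT than KO libraries, against 6.58 and 2.10 percent of all genes. Read over called genes alone, this is 2 of 5 members against 47.1 percent of the 3882 genes with a promoter peak in at least 1 library. With TSSs of the basic set, Igf2, Dlk1 and Mest had more KO and Grb10 more WT libraries, against 6.40 and 2.12 percent of all genes. With all TSSs, both differences came from the 75 bp libraries, in which the mark was called in 1 WT and 2 KO libraries at Dlk1 and in 0 and 1 at Mest. In 3 of 3 libraries 0 members were called in either genotype, against 2.56 percent of all genes in WT and 6.14 percent in KO.

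Signal was compared by limma over regions joined across libraries. No region of a member was called in all 6 libraries, so none entered the test of those 717 regions, of which 0 passed an adjusted p of 0.05 and 8 had an unadjusted p under 0.05. Of the 3624 regions called in at least 3 libraries, 4 belonged to members, with a library that lacked a peak set to its smallest called signal. The log2 difference, KO minus WT, was 0.56 ± 0.48 (SE) at the 5′ region of Igf2 and -0.64 ± 0.48 at its 3′ region. It was -0.53 ± 0.46 at the region around the major Grb10 promoter and -0.37 ± 0.49 at the 3′ part of Dlk1. The adjusted p of limma was 0.997 for each of the 4, and 0 of the 3624 regions passed, with 56 at an unadjusted p under 0.05. All values of the 50 bp libraries in these regions were set ones. In WT replicate 3 the set value was 0.778 of the library median against 0.479 to 0.647 in the others. Without that library the difference at the 5′ region of Igf2 was 0.995 ± 0.422 (unadjusted p of limma 0.0296, adjusted p 0.983), that at the 3′ part of Dlk1 turned to 0.15 ± 0.44, and those at the 3′ region of Igf2 and at Grb10 were -0.25 and -0.24. The 5′ region of Igf2 had 0.23 without WT replicate 1. At the 3′ part of Dlk1 the difference was -0.61 without WT replicate 1 and -0.65 without KO replicate 3, and Grb10 had -0.34 without KO replicate 2. Values were centred on the median of the regions called in all 6 libraries. Centred on the median peak of each library, the differences were 0.75 and -0.45 at the 5′ and 3′ regions of Igf2, -0.33 at Grb10 and -0.17 at Dlk1, and the median over all regions was 0.03 in place of -0.16.

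The Igf2 and Dlk1 regions were joined from peaks that overlapped only in part. The Grb10 region is a chain of peaks that do not all overlap each other. In WT replicate 2 the Grb10 region took in a further peak, with a total signal of 6906, outside the promoters and body of Grb10. With the peaks of Grb10 alone the log2 difference was -0.25 ± 0.47 in place of -0.53. In the 75 bp libraries, all 4 of which had the region called, it was -0.39 ± 0.34 with that peak and 0.034 ± 0.358 without it (adjusted p of limma 0.998 and 0.999).

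Other genes of the pathway and of the imprinted class were read from 4 lists. Of 19 genes of the IGF axis, 7 had a promoter peak in at least 1 library, 5 in at least 4 and 1 in all 6, against 14.0, 8.46 and 2.26 percent of all genes. The gene called in all 6 was Igfbp3, which encodes the main IGF carrier protein of plasma. Irs1 and Irs2, which encode the docking proteins of the insulin and IGF1 receptors, and Lin28a, an RNA-binding protein gene, were called in 5, Igfbp5 in 4 and Igfbp2 in 3. Of the 7, 5 were called in more KO than WT libraries and 1, Igfbp5, in more WT than KO libraries. Of the 3882 genes called in at least 1 library, 47.1 percent had more in KO and 583 more in WT. In the 75 bp libraries alone the counts were 3 and 1 of the 7, against 23.0 percent with more in KO of the 3851 genes called there. Igf1, Igf1r and Insr, the other ligand and its receptors, had none.

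Of 34 other imprinted genes, 11 had a promoter peak in at least 1 library, 9 in at least 4 and 0 in all 6, against 14.0, 8.46 and 2.26 percent of all genes. Rasgrf1, Kcnq1, Ascl2, Kcnk9, Sfmbt2 and Calcr were each called in all libraries but WT replicate 3. Of the 11, 10 were called in more KO than WT libraries, against the same 47.1 percent. In the 75 bp libraries alone 3 of the 11 (Cdkn1c, Nespas and Zdbf2) were called in more KO and 1 (Gnas) in more WT libraries, and the other 7 in equal numbers. Of all genes called there 23.0 percent had more in KO. Most of the count of 10 thus rested on replicate 3. Of 36 matched neighbours in the members' domains, 5 had a promoter peak in at least 1 library and the same 5 in at least 4, namely Dio3, Begain, Klf14, Igf2os and Cobl. That is 13.9 percent at both limits. Of all genes, 14.0 percent were called in at least 1 library, about the same share, and 8.46 percent in at least 4. Igf2os was called through the peaks of Igf2. Of 12 genes that maintain imprints, such as Zfp57, Trim28 and Dnmt1, 0 had a peak.

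**Figure D4:**
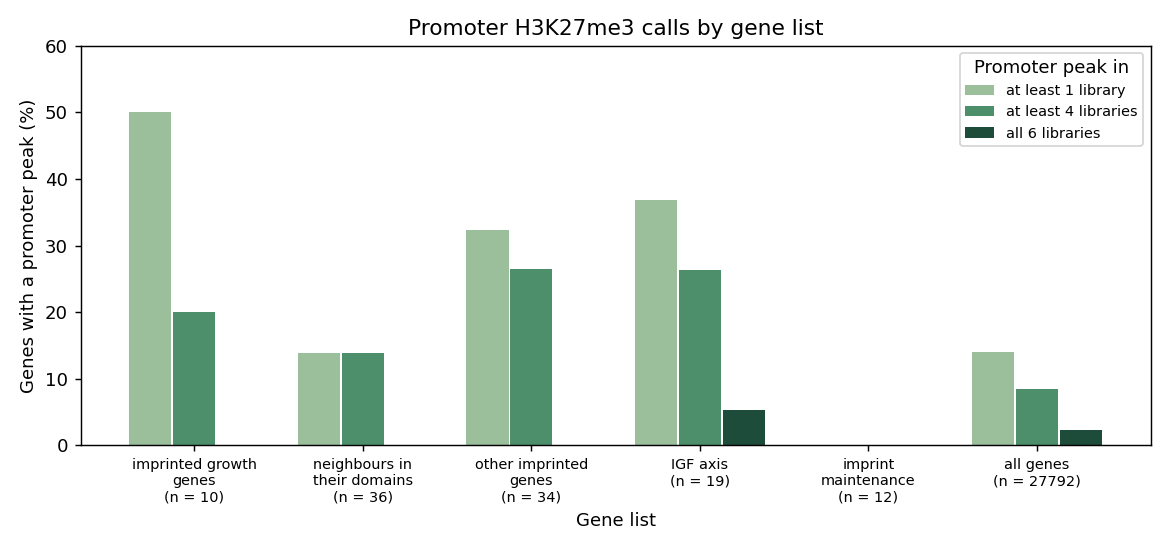
Percent of genes with a promoter H3K27me3 peak in at least 1, at least 4 and all 6 libraries (bars), for the 10 imprinted growth genes, 4 related lists and all 27792 genes. Promoters of all annotated TSSs were used. Bars of the imprinted growth genes stand at 50 and 20 percent with none called in all 6 libraries, against 14.0, 8.46 and 2.26 percent of all genes.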

How the data were processed

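H3K27me3 CUT&Tag libraries of fetal liver LT-HSCs were analysed, 3 WT and 3 KO, grouped by their titles. Another 4 samples of the series, CUT&Tag for IκBα, are not analysed here. According to the submitters' processing notes and the study's methods, the authors trimmed reads with Trim Galore 0.6.6, aligned them to GRCm38 with Bowtie2 2.4.4, kept unique reads of mapping quality 20 or more and called peaks per library with SEACR 1.3 (stringent mode, top 0.5 percent of peaks, no IgG control). The deposited peak files hold 2 signal values per peak, total and maximum signal, neither scaled to depth; read totals are not in these files. Replicates were not pooled. The deposited files are named as free of duplicates and filtered for blacklisted regions.

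Peaks on the mitochondrial genome were left out. Peaks were assigned to GENCODE M21 genes by an overlap of at least 1 bp, with Python 3.11.15, pandas 2.3.3 and pysam 0.24.0. Counts and shares were compared by an exact two-sided permutation test over the 20 assignments of libraries to genotypes. Regions were compared in R 4.3.3 with limma 3.58.1 on log2 total signal centred on each library's median over the regions called in all libraries of the fit, with Benjamini-Hochberg adjustment. Promoter sequences were matched to the RefSeq table of GRCm38.p6 by symbol, for 9 of 10 members.

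All 10 members are described. Up to 6 genes of each list are named, those with a promoter peak in most libraries and, in ties, the larger signal relative to the library median; others named are neighbours or pathway genes without a peak, and Cdkn1c, Nespas, Zdbf2 and Gnas, which were named after their values were seen. The members and lists were chosen with earlier results of these data known. Deviations of same-numbered WT and KO libraries from their group means correlated at 0.272, 0.314 and 0.469, and read length is shared by the same numbers. WT replicate 2 with KO replicate 1 gave 0.268 and WT replicate 1 with KO replicate 2 gave 0.0981. The numbers thus did not clearly separate replicates 1 and 2. The main tests did not pair the libraries, and the replicate number entered only as an alternative. Alternatives tried were other peak, promoter, overlap and scaling choices, leaving out libraries, a replicate block and, added after seeing the data, TSSs of the basic set, the block at regions called in at least 3 libraries those regions without each library, centring on the median peak regions made of member peaks alone and lists in the 75 bp libraries.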

Additional observations from a re-analysis of the deposited data

How the results depend on the processing

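The calling limit bounds all values: no member peak was called in the 50 bp libraries, and most member peaks in the 75 bp libraries lay close to it. With the 1044 strongest peaks of each library, the difference in members with a promoter peak, in members with any peak, in covered share and in share of signal was 0, since no member peak was among them, and 0 members were called in all libraries of either genotype. With peaks above each library's median alone, calls remained in KO libraries only (Igf2 in replicates 1 and 2, Dlk1 in replicate 2), and the differences were 1 member, 1.43 points of covered share and 0.0317 points of signal (exact permutation test, p = 0.4 for each). The share of all genes left with KO calls alone by this filter is not given here, so these calls are not read as a difference. Leaving out 1 library moved the difference in members with a promoter peak (the same for promoter or body) from -0.5 without KO replicate 1 to 2 without KO replicate 3, through -0.333 without WT replicate 3. The difference in covered share ran from -0.666 to 2.50 points, with -0.317 without WT replicate 3, and that in the share of signal from -0.00618 to 0.0454 points, with the lowest value in each case without KO replicate 1. None of these passed the threshold, which this design cannot reach. Members with a promoter peak in all libraries of a genotype, 0 and 0, became 2 in WT (Igf2 and Grb10) and 3 in KO (with Dlk1) when 2 of 3 libraries were enough or the 75 bp libraries alone were used. The count was 2 in WT without WT replicate 3 and 3 in KO without KO replicate 3. The shares of all genes under these rules are not given here, so the counts are not read as a difference. In the limma comparison 0 regions passed under every alternative run, and the difference at the 3′ part of Dlk1 turned from -0.37 to 0.15 without WT replicate 3. With the peaks of Grb10 alone, its difference in the 75 bp libraries turned from -0.39 to 0.034. Centring on the median peak changed the regions at an unadjusted p under 0.05, among those called in at least 3 libraries, from 4 higher and 52 lower in KO to 17 higher and 13 lower. With the replicate block, the exact sign-flip test over same-numbered pairs gave p = 1 for the 4 differences (0.25 is the smallest it can give), and the limma adjusted p of the member regions was 0.880 to 0.955; the block changed no call.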
